A study of Arabidopsis thaliana with 24 samples.

Results

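H3K9ac peaks that stood high in wild-type seedlings after 1 h of red light, and low both in darkness and in continuous white light, were examined together with their levels in the pifq mutant. Members were chosen by their wild-type signals alone. After 0.07 had been added to each value, a peak was kept where wt R1h was at least 1.5 times wt D and also at least 1.5 times wt WLc. The rule kept 104 of the 19435 entries of the peak table, or 0.535%. These entries lie at 99 distinct peak positions and name 99 genes, because 5 genes have a pair of member peaks and 4 member positions are entered under more than 1 gene.

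H3K9ac was profiled by chromatin immunoprecipitation and sequencing in whole 2-day-old seedlings of the Columbia-0 ecotype. Seeds were stratified in the cold, and germination was induced by white light followed by a far-red pulse. The sources differ on whether this came before or after the cold, and do not say plainly that the pulse was given to WLc seeds too. Dark samples (D) stayed in the dark for the 2 days, R1h samples received 1 h of red light at 10 μE after 47 h of darkness, and WLc samples grew in continuous white light at 100 μE. Each light regime was applied to wild type (wt) and to pifq, a quadruple mutant of PIF1, PIF3, PIF4 and PIF5, and each of the 6 groups has 3 H3K9ac libraries and 1 input library. WLc seedlings were grown apart in white light and were not the R1h seedlings at a later time, so the values do not follow a peak through time. The table deposited by the authors holds 1 pooled value per peak and group, a signal per bp of peak. No SD, n or p can therefore be given for any value below, no test was possible, and no difference between groups has a replicate check here. Column totals of signal times length lay within 2.08% of each other, the depth of the libraries is unknown, and between 21 and 79 peaks per group lay at the lowest value of their column.

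Acetylation of lysine 9 on histone H3 is a mark of transcribed genes and usually lies just downstream of the start site. When a dark-grown seedling first meets red light, phytochromes enter the nucleus and trigger the degradation of PIFs, bHLH transcription factors that hold the seedling in its dark programme, and the seedling starts to open its cotyledons, to build chloroplasts and to reset its clock. In pifq the PIF quartet is missing from the start, so dark-grown pifq seedlings already resemble light-grown ones.

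The promoters of 5 members are shown as examples of the ACGT core, the centre of the G-box CACGTG. The G-box is recognised by bZIP factors such as HY5 and bHLH factors such as the PIFs. The core was found more often in member promoters than in those of the other genes, as described further on. The 5 were picked from the 20 members whose smaller ratio of the rule was largest, with wt R1h at or above the median of all peaks. Not all had a large ratio of wt R1h to wt D. The log2 difference was 0.88 in LEA18, below the member median of 0.96. Each promoter runs from 250 bases before the RefSeq gene start to the base before it, 5′ to 3′ on the strand of the gene in the TAIR10.1 genome. The windows are chr2:19232357-19232606 on the plus strand for PRR9, chr3:8085670-8085919 on the minus strand for ELIP1, chr3:19024942-19025191 on the plus strand for F3H, chr1:29513101-29513350 on the minus strand for ATGA2OX1 and chr2:14863413-14863662 on the minus strand for LEA18. Capitals mark the ACGT core and, where it is complete, the whole G-box.
PRR9: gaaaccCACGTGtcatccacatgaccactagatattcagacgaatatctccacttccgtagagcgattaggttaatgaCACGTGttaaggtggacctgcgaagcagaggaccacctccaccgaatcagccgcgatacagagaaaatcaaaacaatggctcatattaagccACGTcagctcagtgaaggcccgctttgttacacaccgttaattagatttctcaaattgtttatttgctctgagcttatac
ELIP1: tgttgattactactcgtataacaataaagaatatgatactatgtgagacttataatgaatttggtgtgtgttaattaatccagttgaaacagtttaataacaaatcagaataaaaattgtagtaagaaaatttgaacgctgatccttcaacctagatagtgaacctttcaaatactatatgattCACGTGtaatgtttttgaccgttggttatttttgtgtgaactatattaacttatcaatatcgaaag
F3H: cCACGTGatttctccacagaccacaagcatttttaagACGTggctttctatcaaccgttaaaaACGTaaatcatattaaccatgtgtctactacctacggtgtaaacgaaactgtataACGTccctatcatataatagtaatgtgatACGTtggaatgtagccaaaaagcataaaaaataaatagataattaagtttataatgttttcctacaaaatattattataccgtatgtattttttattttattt
ATGA2OX1: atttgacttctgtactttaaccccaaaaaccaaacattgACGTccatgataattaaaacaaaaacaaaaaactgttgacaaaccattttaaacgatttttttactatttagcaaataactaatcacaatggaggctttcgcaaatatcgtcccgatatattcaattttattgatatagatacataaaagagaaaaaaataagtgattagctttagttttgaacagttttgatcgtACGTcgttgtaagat
LEA18: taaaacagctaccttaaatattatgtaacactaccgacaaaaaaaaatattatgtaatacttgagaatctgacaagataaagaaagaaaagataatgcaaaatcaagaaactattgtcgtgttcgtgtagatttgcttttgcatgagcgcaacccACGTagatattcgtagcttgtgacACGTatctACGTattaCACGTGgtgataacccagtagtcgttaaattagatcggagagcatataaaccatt
The PRR9 promoter holds 2 G-boxes, at 244 and 172 bases before the start, and the ELIP1 promoter 1 at 66 bases. LEA18 has a G-box at 55 bases and further ACGT cores at 95, 71 and 63 bases, and F3H a G-box at 249 bases and further cores at 213, 187, 132 and 103 bases. ATGA2OX1 has 2 ACGT cores and no G-box in this window. These promoters do not stand for all members, since a G-box was found in only 19 of 98 member promoters (19.4%). Among the 20, cPT4, AT1G80130, AT5G57770, AT3G51238, CYP705A5, AT5G58750, AT4G35660 and BOU also had a smaller ratio above that of LEA18. They had no G-box and are not shown, so the choice leans towards promoters with a G-box. AT5G57770 and AT3G51238 had no ACGT core either.

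The chosen values themselves are given as a description. Over the 104 members the median signal was 0.244 in wt D, 0.622 in wt R1h and 0.257 in wt WLc, whereas the medians of all peaks were 0.715, 0.712 and 0.723. Members were thus weak peaks in dark-grown and in white-light-grown wt, with a median near that of all peaks in wt R1h only. The log2 difference between wt R1h and wt D ranged from 0.60 to 3.61 (median 0.96), and that between wt R1h and wt WLc from 0.60 to 3.72 (median 0.92). Either condition of the rule alone is met more often, with 4.38% of all peaks 1.5-fold or more higher in wt R1h than in wt D and 6.25% higher than in wt WLc. wt R1h was the highest of all 6 groups for 99 of the 104 members, which the rule makes likely. In pifq the member medians were 0.185 in D, 0.353 in R1h and 0.292 in WLc, against 0.711, 0.715 and 0.723 over all peaks.

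**Figure D1:**
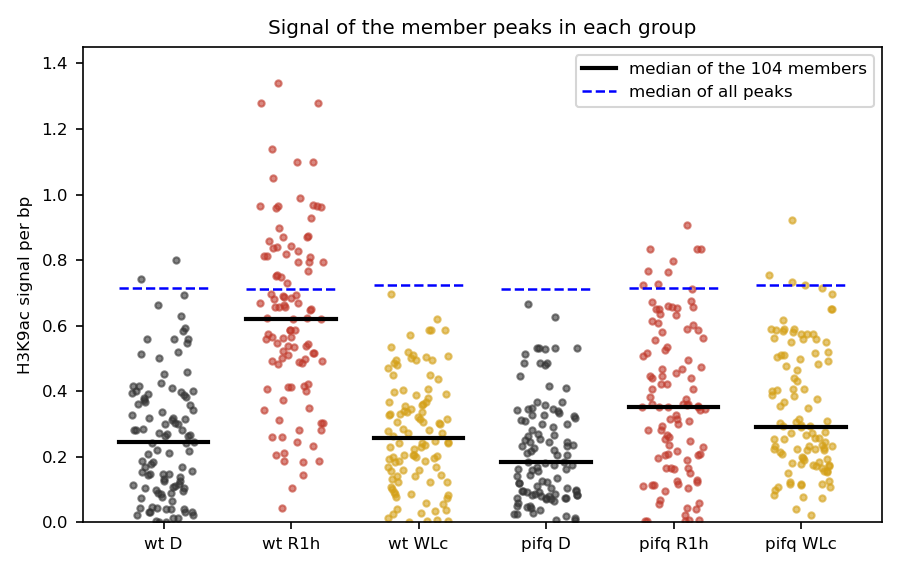
H3K9ac signal per bp (y axis) of the 104 member entries in each of the 6 groups (x axis), 1 point per entry, with the member median (black bar) and the median of all peaks (blue dashed bar). The wt R1h median of 0.622 lies near that of all peaks (0.712), whereas the pifq R1h median of 0.353 lies between wt D and wt R1h.

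Among the members with a wt R1h signal at or above the median of all peaks, the gibberellin 2-oxidase gene ATGA2OX1 (AT1G78440), whose product inactivates gibberellins, had the largest ratio of wt R1h to wt WLc (log2 difference 3.72). Its peak at chr1:29512558-29512816, centred 413.0 bp downstream of the start, had a signal of 0.132 in wt D, 0.928 in wt R1h and 0.00593 in wt WLc. That wt WLc signal is only 1.72 times the lowest value that the column allows for this peak length. The size of the log2 difference thus depends on the added 0.07. In pifq the same peak read 0.220 in D, 0.346 in R1h and 0.315 in WLc. The pifq values lay close together, and all were below wt R1h and above the other wt groups. GA2OX4, a second member gene of the same enzyme family, was weaker, with 0.0667 in wt D, 0.260 in wt R1h and 0.133 in wt WLc. Its pifq signals were 0.106 in D, 0.111 in R1h and 0.117 in WLc, so the 3 light regimes differed little there.

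ELIP1 (AT3G22840) encodes an early light-inducible protein that binds chlorophyll and protects the assembling photosystems. Its 1601 bp peak had a signal of 0.157 in wt D, 0.749 in wt R1h and 0.159 in wt WLc. In pifq it was 0.0500 in D, 0.166 in R1h and 0.276 in WLc, so that the highest pifq value was in white light and pifq R1h stayed near the level of wt D. The related gene ELIP2 was no member, since its wt WLc signal of 0.355 was too close to the 0.553 of wt R1h.

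Both clock genes among the members were also highest in R1h in pifq. PRR9 (AT2G46790) encodes a pseudo-response regulator that represses the morning clock genes CCA1 and LHY. Its peak at chr2:19232695-19233500 rests on signals of 0.0397 in wt D, 0.959 in wt R1h and 0.314 in wt WLc. In pifq the signals were 0.0598 in D, 0.765 in R1h and 0.222 in WLc, a log2 difference between pifq R1h and pifq D of 2.68, the largest of all 19435 entries. GI (GIGANTEA), which links the clock to flowering, had 0.393, 0.767 and 0.328 in wt D, R1h and WLc. The corresponding pifq values of GI were 0.357, 0.614 and 0.235, again highest in R1h and lowest in WLc. Other clock genes with a wt R1h signal well above wt D, such as RVE8 with 0.433 in wt D and 0.878 in wt R1h, were not members because wt WLc was also high (0.752).

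HY5 (AT5G11260), the bZIP factor that promotes photomorphogenesis, lies in the longest member peak, 5804 bp at chr5:3592423-3598227, which overlaps AT5G11250, HY5, OCP3 and AT5G11280 and is entered for the last 3 of these genes. Its signal was 0.559 in wt D, 0.965 in wt R1h and 0.586 in wt WLc. In pifq it was 0.533 in D, 0.834 in R1h and 0.591 in WLc. The peak was therefore well filled in every group, and the signal cannot be divided among the 4 genes.

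F3H (AT3G51240) encodes flavanone 3-hydroxylase, an enzyme on the way to flavonols and anthocyanins. Its peak at chr3:19025249-19026050 had 0.0431 in wt D, 1.1 in wt R1h and 0.496 in wt WLc, and in pifq 0.119 in D, 0.658 in R1h and 0.650 in WLc. The WLc and R1h signals were thus alike in pifq. The same peak is entered for AT3G51238, a non-coding RNA gene on the opposite strand, and immunoprecipitated DNA does not tell the strands apart. CHIL and FLS1 of the same pathway also had more signal in wt R1h than in wt D (0.445 against 0.0706 and 0.580 against 0.149), but their wt WLc signals of 0.644 and 0.580 kept them out.

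cPT4 (AT5G58770), annotated as an undecaprenyl pyrophosphate synthetase family gene of the cis-prenyltransferases, had the largest log2 difference between wt R1h and wt D of all entries (3.61). Its wt D signal of 0.00237 is the lowest value that the column allows for this peak length, so the difference depends on the added 0.07. The signal was 0.813 in wt R1h and 0.307 in wt WLc, and in pifq 0.0259 in D, 0.421 in R1h and 0.349 in WLc.

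**Figure D2:**
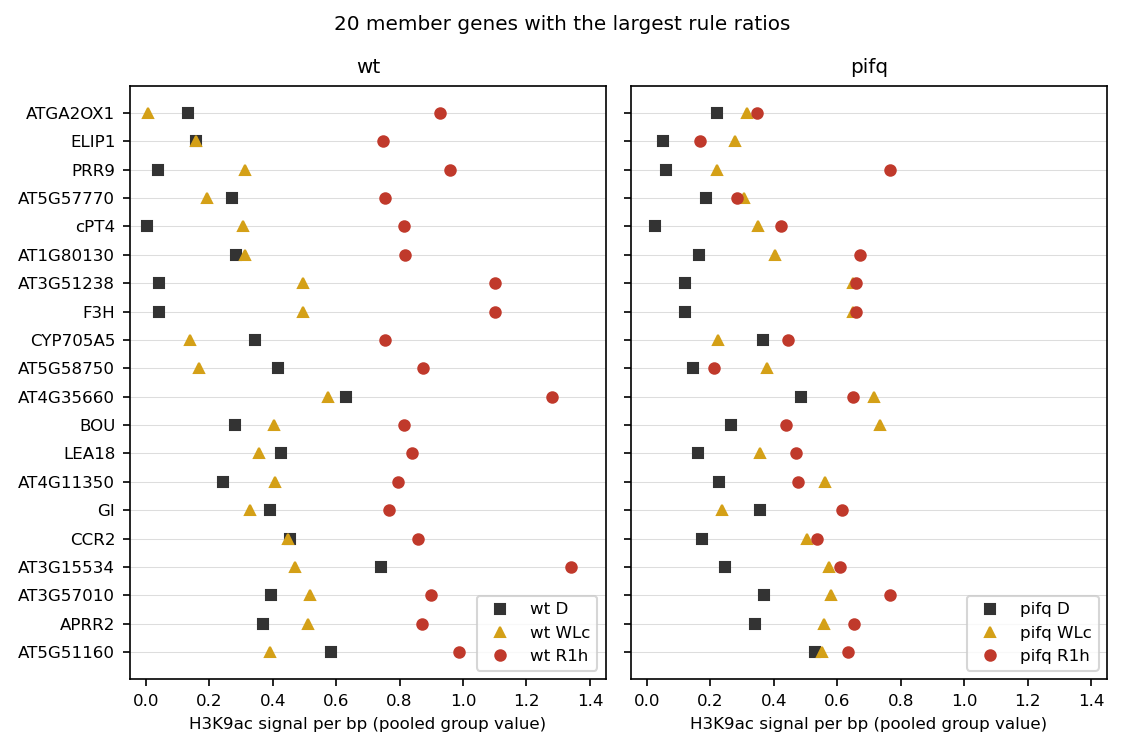
Pooled H3K9ac signal per bp (x axis) of the 20 member genes with the largest smaller ratio of the rule among those at or above the wt R1h median, in wt (left) and pifq (right), for D (squares), R1h (circles) and WLc (triangles). In wt the circle stands to the right of both other symbols by selection. In pifq the circle is rightmost for PRR9 (0.765), AT1G80130 (0.673) and GI (0.614) among others, and it overlaps or trails the triangle for F3H, ELIP1 and BOU.

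The pifq columns played no part in choosing the members, and the red light response in pifq is the same measure in libraries that the rule did not use. In pifq, 45 of the 104 members were 1.5-fold or more higher in R1h than in D, which is 43.3% of members beside 1.83% of all peaks. In the other direction, 3 members were 1.5-fold or more lower, also a larger share than over all peaks (2.88% beside 0.643%). The median log2 difference between pifq R1h and pifq D was 0.51 over the members and 0.00 over all peaks, and 90 of the 104 members lay above 0. Counting each position once leaves 40 of 99 (40.4%, beside 1.93% of all positions). A closer comparison is given by the 748 other entries 1.5-fold or more higher in wt R1h than in wt D, whose wt R1h was under 1.5 times wt WLc. Of these entries 230 (30.7%) were higher in pifq R1h and 13 (1.74%) lower, with a median of 0.40.

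Members with a larger ratio in wt had a larger one in pifq. Of the 12 members at least 4-fold higher in wt R1h than in wt D, 10 were 1.5-fold or more higher in pifq R1h than in pifq D, with a median log2 difference of 1.38. Of the 32 members between 2-fold and 4-fold, 18 were higher in pifq (median 0.65), and of the 60 under 2-fold, 17 (median 0.39). Over the 104 entries Pearson's r between the log2 differences of wt and pifq was 0.63, a description across peaks that share their libraries and that include positions entered more than once. The same r over all 19435 entries was also 0.63. Shares over all peaks with such wt ratios were not counted, so the rise is not read as particular to the members.

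**Figure D3:**
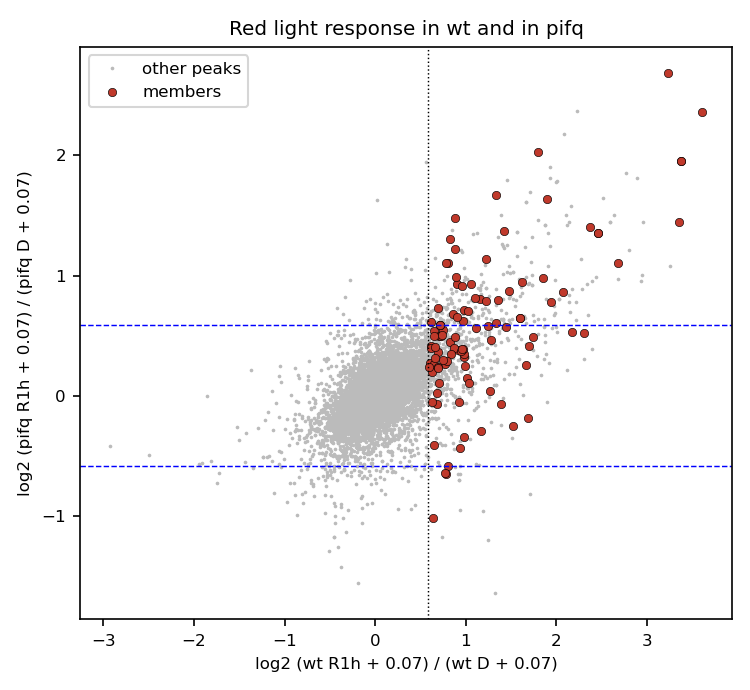
Log2 difference between R1h and D, after adding 0.07, in wt (x axis) and in pifq (y axis) for members (red) and all other peaks (grey), with the 1.5-fold limits as dashed lines for pifq and a dotted line for wt. All members lie right of the dotted line by selection, 45 lie above the upper dashed line and 3 below the lower one.

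The count also held among strong and long peaks. Of the 36 members whose wt R1h signal reached the median of all peaks, 21 (58.3%) were higher in pifq R1h, beside 0.885% of the 9719 peaks with such a signal. Of the 68 weaker members 24 were higher (35.3%, beside 2.77% of all such peaks). Among peaks of at most 300 bp, 12 of 40 members were higher in pifq R1h, beside 7.31% of all such peaks. Among longer peaks it was 33 of 64, beside 1.46%. Without the 7 members that lie at the lowest value of a column in any group, 43 of 97 were higher (44.3%, beside 1.68% of all peaks that never lie there).

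In pifq the median WLc signal of members lay nearer to that of R1h than to that of D. In pifq, 10 members were 1.5-fold or more higher in R1h than in WLc (9.62%, beside 0.617% of all peaks) and 11 were lower (10.6%, beside 1.81%). The median log2 difference between pifq R1h and pifq WLc was 0.05, where the rule had set that between wt R1h and wt WLc to a median of 0.92. Of the members, 47 were 1.5-fold or more higher in pifq WLc than in pifq D (45.2%, beside 3.79% of all peaks) and none was 1.5-fold lower. The 748 other entries gained in wt R1h were much alike, with 327 higher (43.7%) and 0 lower. The median log2 difference between pifq WLc and pifq D was 0.53 over members and 0.51 over those entries. When the contrasts are read together, 5 members were higher in R1h than both in D and in WLc. Of these 5, PRR9, AT1G80130 and UGT74E2 were also 1.5-fold or more higher in WLc than in D. Among the other members, 30 were higher in both R1h and WLc than in D, and 10 in R1h alone with WLc in between. A further 14 were higher in WLc alone, and 45 were higher in neither.

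The members that also meet both conditions of the rule in pifq are PRR9, GI, AT1G80130, UGT74E2 and VSP2, and the table holds 10 such entries in all, or 0.0515%. AT1G80130, a gene for a tetratricopeptide repeat protein, had 0.163 in pifq D, 0.673 in pifq R1h and 0.403 in pifq WLc, next to 0.283, 0.818 and 0.314 in wt. UGT74E2, which encodes a glucosyltransferase acting on the auxin precursor indole-3-butyric acid, had the highest pifq R1h signal of all members, 0.907, against 0.309 in pifq D and 0.512 in pifq WLc. It is among the 3 members in which pifq R1h exceeded wt R1h, whose signal was 0.620. VSP2, a vegetative storage protein gene known as a jasmonate target, had 0.111, 0.328 and 0.172 in pifq D, R1h and WLc, and 0.183, 0.523 and 0.0403 in wt. Its 246 bp peak and the 151 bp peak of UGT74E2 are short.

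The wt WLc level, although bounded by the rule, still divided the members. It was 1.5-fold or more above wt D in 18 members (8.60% of all peaks were) and 1.5-fold or more below in 13 (6.95% of all peaks). Of the 18, which include PRR9, cPT4, F3H and AT1G79520, a cation efflux family gene, 16 were higher in pifq R1h than in pifq D, with a median log2 difference of 1.35. Of the 13, which include ATGA2OX1, HAI1, LEA4-5 and AT5G58750, 4 were higher (median 0.42). Of the remaining 73 members, 25 were higher (median 0.45). The split uses the columns of the rule, which requires a large ratio of wt R1h to wt D in the first of these sets. It therefore overlaps with the split by that ratio above. Here too, shares over all peaks split in this way were not counted.

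Further members with a large response in pifq were AT4G05490, AT5G37550 and LTI30. AT4G05490, for an RNI-like protein, had 0.0210 in pifq D, 0.301 in R1h and 0.184 in WLc, close to its wt values of 0.0402, 0.312 and 0.124. AT5G37550, whose product is uncharacterized, had 0.0261, 0.229 and 0.407 in pifq, highest in white light. LTI30, a dehydrin gene known from cold and drought, had 0.0845, 0.362 and 0.386 in pifq and 0.337, 0.683 and 0.398 in wt. Dark pifq therefore started lower than dark wt at LTI30, and pifq R1h came up to the level of wt D.

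At the other end stood members with less signal in pifq R1h than in pifq D. AT2G03360, for a glycosyltransferase of family 61, had 0.0842 in pifq D and 0.00618 in pifq R1h, a log2 difference of -1.02. Its pifq R1h signal was only 1.95 times the lowest value that the column allows for this peak length. CNGC16, a cyclic nucleotide-gated channel gene, had 0.205 and 0.106, and AT3G45190, for a SIT4 phosphatase-associated protein, 0.134 and 0.0604. These are the 3 members 1.5-fold or more lower in pifq R1h, and in wt R1h none of them exceeded 0.281. AT3G46360, IAA32, an Aux/IAA gene, and FAS4 follow, with log2 differences of -0.58, -0.44 and -0.41 that stay within the 1.5-fold limit and wt R1h signals of 0.105, 0.144 and 0.206. In FAS4, an RNA helicase gene, pifq R1h (0.00448) lay at the lowest value of its column. AT3G46360 and FAS4 were higher in pifq WLc (0.191 and 0.107) than in pifq D (0.0477 and 0.0292). The 6 members lowest in pifq R1h relative to pifq D were thus all weak peaks.

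Several members encode proteins of dehydration and abscisic acid responses. They were picked for their annotation after the values had been seen, so their number carries no weight. LEA18, for a late embryogenesis abundant protein that protects dry cells, had 0.425, 0.838 and 0.356 in wt D, R1h and WLc, and 0.161, 0.469 and 0.356 in pifq. LEA4-5, another gene of this kind, had 0.592, 0.968 and 0.156 in wt, but 0.164, 0.261 and 0.254 in pifq. The pair differ in pifq, with log2 differences between pifq R1h and pifq D of 1.22 for LEA18 and 0.50 for LEA4-5. LTI65, an abscisic acid and cold-responsive gene, had 0.208, 0.500 and 0.185 in wt and 0.104, 0.118 and 0.167 in pifq. HAI1, a clade A protein phosphatase 2C gene whose product dampens abscisic acid signalling, had 0.299, 0.648 and 0.0365 in wt and 0.0922, 0.236 and 0.194 in pifq.

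Growth and developmental regulators were also present. AN3, a transcriptional coactivator that keeps leaf cells dividing, had 0.170, 0.498 and 0.206 in wt and 0.218, 0.360 and 0.400 in pifq. GRF9, of the factor family that works with AN3, had a 151 bp peak with 0.799, 1.28 and 0.697 in wt and 0.627, 0.728 and 0.725 in pifq. SMZ, an AP2-type repressor of flowering, had 0.399, 0.794 and 0.479 in wt and 0.487, 0.711 and 0.484 in pifq. MYB112, a transcription factor that promotes anthocyanin formation, had 0.0484, 0.304 and 0.0274 in wt and 0.00705, 0.0218 and 0.0780 in pifq, where D lay at the lowest value of its column. CCR2, for cinnamoyl-CoA reductase of lignin synthesis, had 0.454, 0.857 and 0.449 in wt and 0.175, 0.535 and 0.503 in pifq. APRR2, a relative of the clock regulators with a 2086 bp peak, had 0.368, 0.871 and 0.510 in wt and 0.340, 0.651 and 0.558 in pifq.

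The rule for named genes also gave members of less known function. AT3G15534, an uncharacterized gene with the shortest member peak, 101 bp, had the highest wt R1h signal, 1.34, with 0.743 in wt D and 0.47 in wt WLc, and 0.246, 0.608 and 0.574 in pifq. AT3G57010, annotated as a calcium-dependent phosphotriesterase family gene, had 0.396, 0.899 and 0.519 in wt D, R1h and WLc and 0.368, 0.767 and 0.581 in pifq. Both were well above pifq D in pifq R1h. BOU, a mitochondrial carrier gene, had 0.281, 0.813 and 0.404 in wt and 0.265, 0.439 and 0.734 in pifq, highest there in white light. AT4G11350, of the DUF604 glycosyltransferases, had 0.242, 0.795 and 0.408 in wt and 0.228, 0.475 and 0.561 in pifq. AT5G58750, annotated as an NAD(P)-binding Rossmann-fold gene, had 0.416, 0.874 and 0.168 in wt and 0.144, 0.21 and 0.377 in pifq. These 3 had their highest pifq signal in WLc. AT5G57770, a DUF828 gene, had 0.271, 0.753 and 0.194 in wt and 0.185, 0.283 and 0.306 in pifq. CYP705A5, a cytochrome P450 gene, had 0.344, 0.755 and 0.141 in wt and 0.366, 0.446 and 0.225 in pifq. AT5G51160, for an ankyrin repeat protein, had 0.583, 0.988 and 0.393 in wt and 0.531, 0.635 and 0.551 in pifq. At these 3 loci pifq R1h was below wt R1h, as at 101 of the 104 members. The rule chose members by a high wt R1h, so nothing is read from this. MEE12, with a 2401 bp peak, had 0.108, 0.412 and 0.195 in wt and 0.122, 0.217 and 0.224 in pifq. AT4G35660, a DUF241 gene, had 0.631, 1.28 and 0.573 in wt and 0.487, 0.65 and 0.716 in pifq at the higher of its 2 peaks.

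Side by side with the wt columns that chose them, 101 of the 104 members had less signal in pifq R1h than in wt R1h, and 82 had more in pifq WLc than in wt WLc (78.8%, beside 52.4% of all peaks). Over all peaks 48.2% had more signal in pifq R1h than in wt R1h, beside 2.88% of members. The median log2 difference was -0.68 for pifq R1h against wt R1h, 0.29 for pifq WLc against wt WLc and -0.13 for pifq D against wt D. For the 748 other entries gained in wt R1h, the last of these medians was 0.79. Each of these differences uses a wt column on which the entries were selected, and nothing is read from them.

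Of 26 lists of genes for light, hormone, metabolic and cell-type functions, 678 of 730 entries matched 1 locus of the reference, and 10 member genes fell in a list. In the clock list, PRR9 and GI are 2 of 24 genes with a peak (8.33%), and 7 of the 24 were higher in pifq R1h than in pifq D, beside 1.92% of all genes. In the gibberellin list, ATGA2OX1 and GA2OX4 are 2 of 21, and none of the 21 was higher in pifq R1h, beside the same 1.92% of all genes. The photoreceptor and light signalling list gave HY5 among 35 genes, light harvesting and photoprotection ELIP1 among 26, flavonoid synthesis F3H among 17, abscisic acid and seed LTI65 among 16, touch and wounding VSP2 among 51 and leaf growth AN3 among 17. Among all 17672 genes with a peak, 99 are members (0.56%). In the remaining lists, which cover B-box, tetrapyrrole, carotenoid, auxin, cytokinin, brassinosteroid, ethylene, heat, cell wall, histone acetylation and other genes, no gene was a member. ARF6, IAA32 and the SAUR gene AT5G66260 are members that the auxin list does not hold.

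PIF direct targets, genes bound by PIFs and misexpressed in dark pifq in earlier work as listed by the study, were looked up among the members. Of 104 PIF-repressed targets with a peak none was a member, and of 156 PIF-induced targets HAI1 was one (0.641%), shares close to the 0.56% of all genes. Of these targets 19 repressed (18.3%) and 6 induced ones (3.85%) were 1.5-fold or more higher in wt R1h than in wt D, beside 4.57% of all genes. In the other direction, 0 repressed and 24 induced targets were 1.5-fold or more lower, as were 167 of all 17672 genes. The 12 genes that the study followed in its time course all have a peak, and none is a member. Cell type markers differed between the groups, and none was a member. The summed signal of the 5 root and root hair markers with a peak was 4.19 in wt D, 4.07 in wt R1h and 1.90 in wt WLc, and between 2.26 and 2.48 in pifq. The 3 stomatal markers with a peak summed to 1.26, 1.73 and 2.38 in wt and to between 1.91 and 2.49 in pifq. The 2 seed markers summed to 1.90, 1.59 and 0.892 in wt and to between 1.14 and 1.23 in pifq. They differed in wt, with 0.974, 0.568 and 0.00718 for OLEO3 but 0.922, 1.02 and 0.885 for OLEO4. In whole seedlings a smaller share of cells and less acetylation per cell cannot be told apart, and the part of cell composition in the wt WLc values of members was not tested.

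Member peaks were short. Their median length was 368 bp with an interquartile range from 251 to 701 bp, against 886 bp over all peaks and 611 bp over the 748 other entries gained in wt R1h. Peaks of at most 300 bp made up 38.5% of members, 22.6% of the other gained entries and 6.33% of all peaks. Every annotated member peak overlapped its assigned gene. The peak centre lay more than 1000 bp downstream of the start in 38 of 103 members (36.9%), in 35.3% of the other gained entries and in 16.8% of all annotated entries. Their mean signal over the 6 groups was also low, with a median of 0.333 against 0.71 over all peaks and 0.465 over the other gained entries, and the part of short length and low signal in the ratios was not tested.

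**Figure D4:**
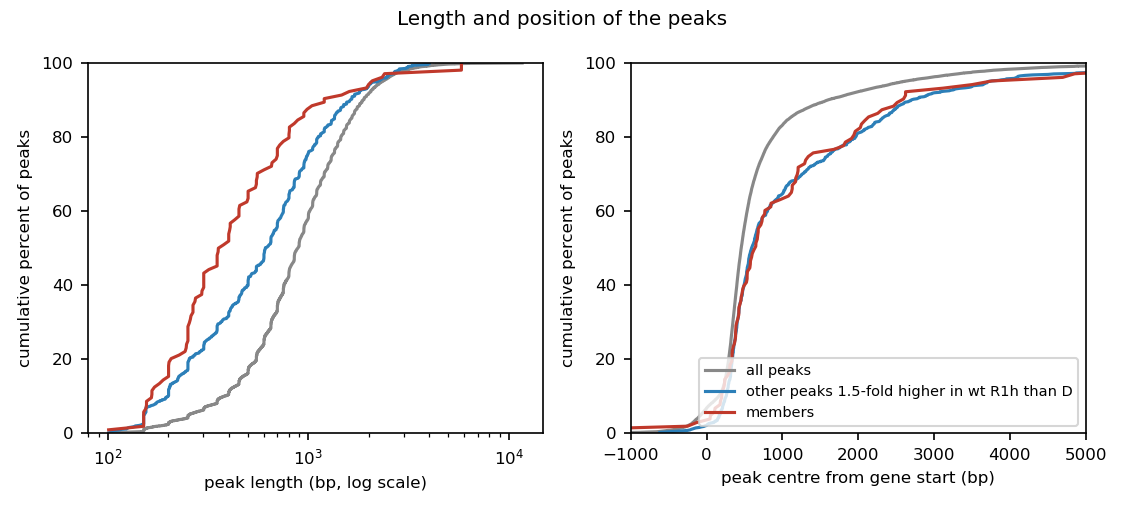
Cumulative percent of peaks (y axes) by peak length in bp on a log scale (left) and by the distance of the peak centre from the start of its gene in bp (right), for members (red), the other entries 1.5-fold or more higher in wt R1h than in wt D (blue) and all peaks (grey). Members are shorter than both other sets (medians 368, 611 and 886 bp), and both gained sets lie farther downstream than all peaks.

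Some member peaks lie at the far end of their gene, where another start can be nearer. The AT2G39260 peak, in a gene for the nonsense-mediated decay factor UPF2, is centred 7487.5 bp into a gene of 7889 bp, and the nearest coding start is that of SNZ (-1148.5 bp, where a minus sign means upstream). SNZ encodes an AP2-type floral repressor related to SMZ. The signal of the peak was 0.111 in wt D, 0.624 in wt R1h and 0.332 in wt WLc, and 0.299, 0.563 and 0.466 in pifq. The peak of AT2G28540, an RNA-binding protein gene, is centred at 5601.5 of 5855 bp, with 0.00126, 0.657 and 0.169 in wt and 0.0715, 0.314 and 0.225 in pifq. In ARF6, an auxin response factor gene, the member peak lies 4855.0 bp downstream of the start with 0.268, 0.565 and 0.187 in wt, whereas the main ARF6 peak near the start had 0.905, 0.870 and 0.827. For 18 of 101 member entries of coding genes the start of another coding gene was nearer (17.8%, beside 14.0% over all such entries).

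Of the member genes, 35 also have peaks outside the rule, 44 in all, which by construction do not meet both conditions. Of these, 5 were 1.5-fold or more higher in wt R1h than in wt D and 1 was lower (median log2 difference 0.15), and 12 were 1.5-fold or more higher in wt R1h than in wt WLc. In HAI1 the 1551 bp main peak had 0.821 in wt D, 0.957 in wt R1h and 0.502 in wt WLc, and only the 260 bp peak farther downstream met the rule. The 5 genes AT1G52990, CKS, AT4G35660, AT4G19380 and AT1G31710 have 2 member peaks each.

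Some members lay near other members on the chromosomes. There were 11 pairs of neighbouring member positions within 10000 bp, of which 6 joined different genes. How often other peaks lie this close was not counted, so nothing is read from this number. The thioredoxin family gene AT1G52990 and CKS, for CMP-KDO synthetase, lie next to each other with 4 member peaks between positions 19742600 and 19746097 of chromosome 1. The stronger peak of CKS had 0.219, 0.668 and 0.389 in wt and 0.213, 0.422 and 0.297 in pifq. MSRB5 and MSRB6, neighbouring genes of methionine sulfoxide reductases that repair oxidized proteins, have peaks of 2336 and 2001 bp that lie 149 bp apart. MSRB5 had 0.137, 0.416 and 0.122 in wt and 0.0829, 0.195 and 0.122 in pifq, and MSRB6 0.0232, 0.349 and 0.145 in wt and 0.0653, 0.125 and 0.0979 in pifq. Another group is AT5G58750, DDB2, a gene of DNA damage recognition, and cPT4 on chromosome 5. DDB2 had 0.417, 0.840 and 0.505 in wt and 0.346, 0.587 and 0.551 in pifq. The pairs GA2OX4 with MYB112, which have 1 other peak between them, and AT5G15940 with AT5G15950 complete the set.

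Promoters of members, from 250 bases before to 50 after the RefSeq start, held an ACGT core in 73 of 98 genes (74.5%), against 49.9% of the 17580 genes of the table with a reference start and 53.2% of the 708 other genes gained in wt R1h. The G-box CACGTG, which contains ACGT, was found in 19 member promoters (19.4%), against 8.86% and 12.7%. The E-box CACATG, a PIF-binding element, stood in 18.4%, against 12.7% and 12.4%. The evening element AAATATCT was found in 9 (9.18%, against 5.86% of all and 6.92% of the other gained genes). The CCA1-binding site AAAAATCT was found in 12 (12.2%, against 8.36% and 10.2%). W-boxes, TTGACC or TTGACT, were fewer, in 20 promoters (20.4%), against 32.5% of all and 32.5% of the other gained genes. Shares of the GCC box GCCGCC, the CGCG boxes ACGCGT and CCGCGT, the auxin element TGTCTC, the I-box GATAAG and the heat element GAANNTTC lay between 3.06% and 16.3% in members and between 2.76% and 15.1% in all genes. Both strands were searched, matches of different motifs may overlap, and a match describes the letters only.

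**Figure D5:**
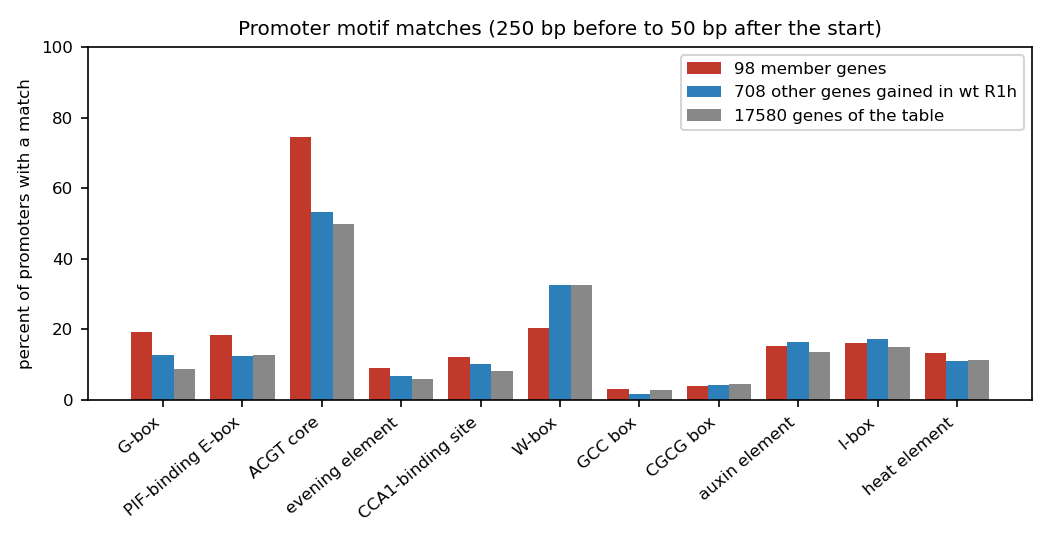
Percent of promoters with at least 1 match (y axis) for each motif (x axis) in 98 member genes (red), 708 other genes gained in wt R1h (blue) and 17580 genes of the table (grey). The ACGT core stands at 74.5%, 53.2% and 49.9% and the G-box at 19.4%, 12.7% and 8.86%.

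Near the limits of the rule the choice of members turns on small differences. Just inside the limit against wt D were AT5G26270, ERF38 and ATGLR1.2, with ratios of 1.514, 1.521 and 1.527, and just outside VSR6, AT3G24420 and AT2G30840, with 1.489, 1.488 and 1.484. Just inside the limit against wt WLc were CSLA11, AT3G50300 and AT1G31710, with 1.511, 1.512 and 1.514. Just outside it were BGLU6, BBX31 and AT3G53830, with 1.499, 1.498 and 1.493. BBX31, a single B-box gene, had 0.0899, 0.573 and 0.359 in wt and 0.0755, 0.432 and 0.342 in pifq, values much like those of members.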

How the data were processed

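Reads had been mapped by the authors with Bowtie2, regions called with BayesPeak and compared with DiffBind, and each region given to the gene with the nearest start. The build is TAIR9 in the methods and TAIR10 in the submitters' notes. Positions were checked against the TAIR10.1 reference. The deposited signal is 1 value per peak and group, pooled over 3 libraries in a way not given in the sources used here. It was used as deposited, with Python 3.11.15, pandas 2.3.3 and numpy 2.4.6. Log2 differences were taken after adding 0.07, which makes differences of weak peaks smaller, and higher or lower means 1.5-fold or more. Genes were named as the 20 members with the largest smaller ratio of the rule at or above the wt R1h median, the 8 highest and 6 lowest in pifq R1h against pifq D, up to 4 per list, the 3 peaks on each side of a limit, the 5 longest peaks and genes with several. Other genes were picked after their values were seen. Members and lists were chosen with earlier results of these data known. The selection was tested on simulated data. Of 12 alternatives, 11 were planned.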

Additional observations from a re-analysis of the deposited data

How the results depend on the processing

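No paired analysis was possible because the columns are pooled over replicates and carry no replicate number. For the same reason no replicate could be left out. The values 104 members, 45 higher and 3 lower in pifq R1h than in pifq D (median log2 difference 0.51), 10 higher and 11 lower than in pifq WLc, and 5 with both conditions met in pifq depended most on the added constant. With 0.007 added there were 144 members, 72 higher and 14 lower than pifq D, 20 higher and 25 lower than pifq WLc, and 15 met both. With 0.35 there were 35 members, 10 higher (28.6%, 0.504%) and 0 lower (0%, 0.0154%) than pifq D, with a median of 0.33. Against pifq WLc 2 were higher (5.71%, 0.0617%) and 0 lower (0%, 0.406%), and 1 met both (2.86%, 0.00515%). With 1 there were 2 members, 0 higher and 0 lower in either contrast (median 0.15), and 0 met both. Of all peaks, 0.00515% were then higher and 0% lower than pifq D. Against pifq WLc 0% were higher and 0.0257% lower, and 0% met both. A 2-fold limit left 24 members, 7 higher (29.2%, 0.458%) and 0 lower (0%, 0.0772%) than pifq D, with a median of 0.64. Against pifq WLc 1 was higher (4.17%, 0.108%) and 0 lower (0%, 0.515%), and 1 met both (4.17%, 0.00515%). Without the 10% of peaks lowest in mean signal there were 35 members, 20 higher (57.1%, 1.16%) and 0 lower (0%, 0.0743%) than pifq D. Against pifq WLc 3 were higher (8.57%, 0.252%) and 1 lower (2.86%, 0.486%), and 3 met both (8.57%, 0.0343%). Quantile normalization gave 0 members lower than pifq D (0%, 0.756%), 4 lower than pifq WLc (4.4%, 1.66%) and 8 that met both (8.79%, 0.072%). It kept 81 of the 104 members. With 1 peak per gene, 1 member was lower than pifq D (1.43%, 0.379%) and 7 were lower than pifq WLc (10%, 1.41%). With wt R1h at or above its median, a limit chosen after seeing the data, there were 36 members. Of these 21 were higher (58.3%, 0.885%) and 0 lower (0%, 0.0309%) than pifq D. Against pifq WLc 4 were higher (11.1%, 0.185%) and 2 lower (5.56%, 0.123%), and 3 met both (8.33%, 0.0514%). Of all recomputed values, 43 moved by more than 1.5 times (counts) or 0.1 (log2 medians) and 53 did not. Depth is unknown, and no replicate error could be set against any difference.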

Other observations

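Outside the members, 5 peaks had pifq R1h at least 1.5 times both pifq D and pifq WLc. AT4G28830, for a methyltransferase family protein, had 0.315 in pifq D, 0.73 in pifq R1h and 0.39 in pifq WLc, and 0.823, 1.1 and 0.46 in wt. BGLU11, a beta-glucosidase gene, had 0.482, 0.787 and 0.368 in pifq and 0.392, 0.578 and 0.449 in wt. The receptor-like kinase gene LRR XI-23 had 0.439, 0.703 and 0.418 in pifq and 0.513, 0.732 and 0.363 in wt. GL22, a germin-like protein gene, had 0.219, 0.38 and 0.207 in pifq and 0.713, 0.67 and 0.23 in wt, where D and R1h were alike. LOX2, for a lipoxygenase of jasmonate synthesis, had 0.147, 0.263 and 0.126 in pifq, and only 0.00426, 0.0518 and 0.123 in wt, highest in WLc.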
